A study of Homo sapiens with 5 samples.

Results

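Messenger RNA of 41 genes of the NF-κB pathway, from its transcription factor subunits to its inflammatory targets, was compared between human mammary epithelial cells with and without CRISPR activation of JUN. The genes were the rows of the deposited count table whose Entrez identifier carries 1 of 41 listed symbols, and all 41 were found among 23459 genes. All libraries came from MCF10A SAM cells. MCF10A is an immortalized, non-tumorigenic line of mammary epithelial cells. From it the authors picked single clones that carry the Synergistic Activation Mediator (SAM) parts dCas9-VP64 and MCP-p65-HSF1. In 3 libraries (NTC, replicates 1 to 3) the cells had a non-targeting control guide RNA. In the other 2 (sgJUN#1, replicates 1 and 2) the guide directed the dead Cas9 to the JUN promoter. Both groups were grown in medium with horse serum, insulin, hydrocortisone, cholera toxin and EGF. Both also carried p65, the activation domain of the NF-κB subunit RELA, as a piece of the activator, and whether its transcript added reads to RELA was not tested. The study calls its RNA-sequencing replicates biological, and the labels number them without saying whether they were separate cultures or infections. P-values therefore measure the spread between these libraries, and its source was not tested.

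NF-κB proteins are dimers that wait in the cytoplasm, bound by inhibitors of the IκB family. Signals from receptors of the TNF, interleukin-1 and Toll-like families pass through TRAF, RIPK and IRAK proteins to the IκB kinase complex, which marks IκB for destruction and frees the dimer to enter the nucleus. There it binds κB sites and switches on cytokines, adhesion molecules and survival genes, along with its own inhibitors NFKBIA and TNFAIP3, whose messenger RNA levels are therefore commonly read as an output of the pathway. JUN belongs to AP-1, a transcription factor that binds many of the same inflammatory promoters.

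Promoter sequences are shown because several genes of the pathway are known to be its own targets. RefSeq promoter windows, from 250 bases before to 50 bases after an annotated start on GRCh38.p14, were found for 35 of the 41 genes (60 windows). The κB consensus was present on either strand in 21 of these 60 windows (35.0%), and in 15 of the 35 genes (42.9%), against 5.91% of all 35116 windows and 7.09% of all 27305 genes. AP-1 sites, searched as TGANTCA on either strand, were in 5 of the 60 windows (8.33%), against 7.71% of all windows. A match describes these letters and is not a measured binding site. Below are the stretches around the κB matches of 2 feedback inhibitors (TNFAIP3 and NFKBIA), of the survival gene BIRC3, of the subunit gene NFKB1 and of the cytokine gene IL6, read 5′ to 3′ on the gene's own strand, with the κB matches in capitals. They lie at chr6:137867162-137867243 (plus strand, TNFAIP3), chr14:35404791-35404860 (minus strand, NFKBIA), chr11:102317255-102317388 (plus strand, BIRC3), chr4:102501280-102501349 (plus strand, NFKB1) and chr7:22727097-22727166 (plus strand, IL6) of GRCh38.p14, all upstream of the start. The matches begin 67 and 55 bases before the start in TNFAIP3, 81 in NFKBIA, 199 and 135 in BIRC3, 49 in NFKB1 and 73 in IL6.
TNFAIP3: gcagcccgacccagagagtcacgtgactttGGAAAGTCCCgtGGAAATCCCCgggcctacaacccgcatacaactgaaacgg
NFKBIA: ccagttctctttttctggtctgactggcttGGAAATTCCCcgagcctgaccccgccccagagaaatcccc
BIRC3: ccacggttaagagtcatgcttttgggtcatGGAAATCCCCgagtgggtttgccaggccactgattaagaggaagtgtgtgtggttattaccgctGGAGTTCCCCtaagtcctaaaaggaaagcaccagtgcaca
NFKB1: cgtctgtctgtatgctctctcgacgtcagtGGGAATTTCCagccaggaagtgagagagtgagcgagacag
IL6: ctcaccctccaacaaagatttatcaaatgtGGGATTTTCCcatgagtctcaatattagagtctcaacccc

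The libraries held between 2455627 and 4988062 counts, and levels are given as CPM (counts divided by the TMM-scaled library size and brought to a common size). A gene with 0 counts could have had up to 3, which is 0.619 to 1.22 CPM depending on the library, and such floors cover counting error only. The targeted gene JUN (Entrez 3725, chromosome 1, 59242517 to 59249720 on GRCh37, the build of all positions that follow) had 25.0, 36.2 and 9.32 CPM in NTC and 171.5 and 265.5 CPM in sgJUN#1, with no overlap between the groups. Its log2 fold change was 3.25 (SE 0.484), which missed the threshold over all genes (edgeR adjusted p = 0.0733). By exact two-sided permutation of its log2 CPM p was 0.1, and no smaller value can be reached with these group sizes. Of the markers of the labelled cell type, all 10 of the mammary basal epithelial list were tested, at 1201 to 2181 CPM summed per NTC library and 1477 to 3368 CPM per sgJUN#1 library, with KRT14 near the floor and, in the epithelial list, KRT19 at 0 counts. Leukocyte markers summed to 229 to 253 CPM in every library, carried mainly by CSF1R, while CD3E, TYROBP and AIF1 had 0 counts. Single markers moved more than these sums. CD68 had 6.33, 8.14 and 3.11 CPM in NTC and 11.4 and 16.1 CPM in sgJUN#1, and the epithelial adhesion molecule EPCAM had 23.7, 7.33 and 23.3 CPM in NTC and 143.9 and 56.5 CPM in sgJUN#1. KRT7, of the epithelial list, went the other way, with 566.1, 457.5 and 458.3 CPM in NTC and 432.4 and 242.6 CPM in sgJUN#1. In all, the groups did not overlap in 8 of the 20 tested markers (25.0% of all tested genes). Of these 5 were higher in sgJUN#1 (KRT17, ITGA6, CDH3, EPCAM and CD68) and 3 lower (KRT14, KRT7 and PDGFRA). The part of such differences in the pathway's values was not tested. No marker list, those of fibroblasts (180.0 to 300.1 CPM) and endothelial cells (10.4 to 16.4 CPM) included, held a gene past the threshold.

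No gene of the pathway passed the threshold when all 5 libraries were compared. The expression filter kept 35 of the 41 genes, and 0 of these 35 passed an edgeR adjusted p of 0.05, against 28 of 13616 tested genes (0.206%). DESeq2 and limma-voom also called 0 of them, where they called 1.06% and 0.147% of all tested genes. By DESeq2 CSF3 lay just over the threshold (adjusted p = 0.0532), and PTGS2 and TRAF1 were given no adjusted p. The edgeR log2 fold changes of the 35 genes ran from -1.38 (MAP3K8) to 3.21 (PTGS2). Their median was 0.14, beside -0.0082 over all tested genes. Of these fold changes 23 were positive and 12 negative (65.7% positive, against 49.0% of all tested genes). In 26 of the 35 the fold change was under 0.5 in size. Just 3 reached 1 in size, PTGS2, CSF3 and MAP3K8, where 4.94% of all tested genes did. At an unadjusted p under 0.05 there were 4, CSF3, PTGS2, BIRC2 and CYLD, each higher in sgJUN#1, against 8.38% of all tested genes. The filter had kept PTGS2 through the sgJUN#1 libraries alone and TRAF1 through NTC libraries alone, so PTGS2 had to differ to be tested, and its place in these counts supports nothing. The groups did not overlap in 7, of which 6 were higher in sgJUN#1 (NFKBIB, TRAF3, BIRC2, CYLD, CSF3 and PTGS2) and 1 lower (TRAF2). That was no larger a share than the background, since the groups did not overlap in 25.0% of all tested genes. In bulk RNA, fewer cells with a transcript and less of it per cell cannot be told apart. The plot of fold changes by role shows the width of the intervals.

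**Figure D1:**
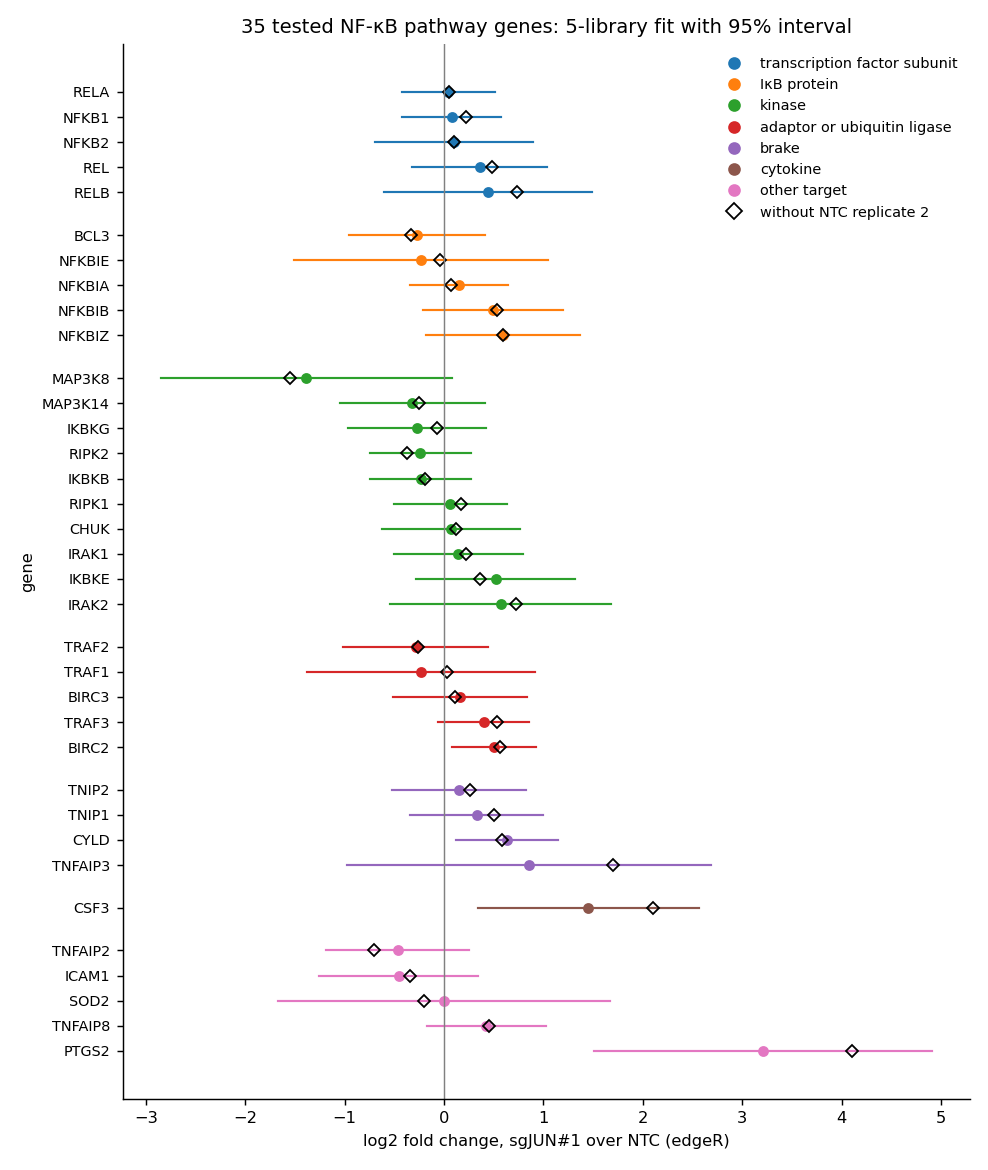
Log2 fold changes of the 35 tested genes, sgJUN#1 over NTC (horizontal axis), by role (colors). Filled points and lines are the edgeR estimate from 5 libraries with its 95% interval, and open diamonds the estimate without NTC replicate 2. Most points lie within 0.5 of 0. CSF3 and PTGS2, the latter from very few NTC counts, lie highest, and the diamonds of CSF3, PTGS2 and TNFAIP3 lie farthest to the right of their points.

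The 5 genes of the transcription factor subunits were all tested, and 0 passed the threshold, with fold changes between 0.04 and 0.44 on the log2 scale. RELA, the main activating subunit of the canonical pathway (Entrez 5970, chromosome 11, 65421070 to 65430561), had 45.4, 42.7 and 38.8 CPM in NTC and 47.1 and 39.7 CPM in sgJUN#1. The log2 fold change of RELA was 0.04 (95% interval -0.43 to 0.51). NFKB1, which encodes the precursor p105 and its product p50 (Entrez 4790, chromosome 4, 103422487 to 103538459), had 81.1, 122.9 and 104.9 CPM in NTC and 105.9 and 110.9 CPM in sgJUN#1. Both sgJUN#1 libraries lay within the NTC range, and the log2 fold change was 0.08 (-0.42 to 0.57).

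NFKB2, whose product p100 is cut to p52 in the non-canonical branch, had 7.15, 8.55 and 9.98 CPM in NTC and 11.6 and 6.44 CPM in sgJUN#1, so the sgJUN#1 pair spanned the NTC range (log2 fold change 0.10, SE 0.355). REL, the c-Rel subunit known best from lymphocytes, had 9.35, 15.9 and 14.9 CPM in NTC and 18.2 and 15.7 CPM in sgJUN#1 (log2 fold change 0.36, SE 0.301). RELB, the partner of p52 (Entrez 5971, chromosome 19, 45504719 to 45541450), varied most of the 5. It had 13.8 CPM in NTC replicate 1 but 48.4 and 41.9 in replicates 2 and 3, and 39.8 and 54.4 CPM in sgJUN#1. The low NTC library thus set the RELB log2 fold change of 0.44 (SE 0.454, adjusted p = 0.842 by edgeR), which was 0.06 without NTC replicate 1.

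Among the 5 IκB proteins 0 passed the threshold, with log2 fold changes from -0.27 to 0.59. NFKBIA, the inducible IκBα and a standard readout of NF-κB activity (Entrez 4792, chromosome 14, 35870285 to 35873955), had 298.7, 301.2 and 420.6 CPM in NTC and 343.2 and 410.4 CPM in sgJUN#1. Both sgJUN#1 values fell inside the NTC range, and the 95% interval of the log2 fold change (0.15) ran from -0.35 to 0.64. NFKBIZ, a nuclear IκB that helps to induce secondary response genes, had 19.0, 27.3 and 34.8 CPM in NTC and 27.7 and 55.1 CPM in sgJUN#1 (log2 fold change 0.59, SE 0.345). The sgJUN#1 pair set that value, which was 0.04 without sgJUN#1 replicate 2 and 1.02 without replicate 1. NFKBIZ overlaps NXPE3 on the same strand, which had between 0.870 and 3.70 counts per NFKBIZ count. NFKBIB, an IκB that is not strongly induced by the pathway itself, had 9.35, 8.55 and 6.43 CPM in NTC and 12.2 and 10.4 CPM in sgJUN#1 (log2 fold change 0.49, SE 0.313). It overlaps SIRT2 on the opposite strand, and whether strand was used in counting is not stated. NFKBIE, at 6 to 21 counts per library, had a log2 fold change of -0.23 whose sign changed without NTC replicate 3 (0.03) or without sgJUN#1 replicate 1 (0.22). BCL3, a nuclear coactivator of p50 and p52, had a log2 fold change of -0.27 (SE 0.306), and 0.11 without sgJUN#1 replicate 1.

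The 10 kinases held 0 calls, 5 positive and 5 negative fold changes and a median log2 fold change of -0.09. The IκB kinase complex itself, CHUK (IKKα), IKBKB (IKKβ) and the scaffold IKBKG (NEMO), had log2 fold changes of 0.07, -0.24 and -0.27, each with an SE between 0.225 and 0.310. Signs changed in CHUK without sgJUN#1 replicate 1 (-0.40) or NTC replicate 3 (-0.13), and in IKBKG without sgJUN#1 replicate 2 (0.02). IKBKG has a near-identical pseudogene copy, so its value is uncertain. RIPK1 and RIPK2, which carry signals from TNF receptors and from NOD receptors, had log2 fold changes of 0.06 and -0.24, and IRAK1, below the interleukin-1 receptor, had 0.14. RIPK1 came to -0.09 without NTC replicate 1 and -0.05 without sgJUN#1 replicate 2. IRAK1 came to -0.23 without sgJUN#1 replicate 1 and -0.07 without NTC replicate 3. The non-canonical kinase MAP3K14 (NIK), with an overlapping antisense gene at 0.448 to 0.633 counts per MAP3K14 count, had -0.32, and the IKK-related IKBKE had 0.52 (SE 0.355), and 0.10 without sgJUN#1 replicate 2.

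MAP3K8 (Entrez 1326, chromosome 10, 30722950 to 30750762), the TPL2 kinase that p105 holds inactive and that leads to ERK, had the lowest fold change of the 35. Its level was 4.68, 8.14 and 20.6 CPM in NTC and 5.78 and 2.50 CPM in sgJUN#1. NTC replicate 3 stood above the other 4 libraries, and sgJUN#1 replicate 1 lay inside the NTC range. The log2 fold change of -1.38 (SE 0.645, adjusted p = 0.621 by edgeR) became -0.50 without NTC replicate 3. IRAK2, an inducible relative of IRAK1 that sustains the signal, had 2.75, 8.95 and 9.76 CPM in NTC and 8.05 and 13.6 CPM in sgJUN#1, so here NTC replicate 1 stood low. The IRAK2 log2 fold change was 0.57 (SE 0.495) and 0.17 without that library.

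All 5 adaptors and ubiquitin ligases were tested, and 0 passed the threshold. BIRC2, which encodes the ubiquitin ligase cIAP1, had 96.3, 103.8 and 85.8 CPM in NTC and 130.2 and 139.2 CPM in sgJUN#1. The groups did not overlap, and the log2 fold change of BIRC2 was 0.50 (SE 0.189, edgeR adjusted p = 0.508). Its neighbor BIRC3 (cIAP2), the κB-driven member of the pair whose promoter stretch is given above, had 104.2, 144.9 and 219.2 CPM in NTC and 150.9 and 198.9 CPM in sgJUN#1. In BIRC3 the groups overlapped fully, with a log2 fold change of 0.16 (SE 0.300) that was -0.06 without NTC replicate 1. TRAF3, which restrains the non-canonical branch, had 61.3, 83.0 and 66.1 CPM in NTC and 90.6 and 93.7 CPM in sgJUN#1 (log2 fold change 0.40, 95% interval -0.06 to 0.86). TRAF2, the TNF receptor adaptor that recruits both cIAPs, had 7.43, 8.14 and 7.99 CPM in NTC and 6.40 and 6.44 CPM in sgJUN#1 (log2 fold change -0.29, SE 0.323), and TRAF1 had a log2 fold change of -0.24 (SE 0.511) that was 0.03 without NTC replicate 2.

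Brakes of the pathway, the deubiquitinases TNFAIP3 and CYLD and the TNFAIP3-binding proteins TNIP1 and TNIP2, had 4 positive fold changes and 0 calls. TNFAIP3 (A20, Entrez 7128, chromosome 6, 138188351 to 138204451) is both a target of NF-κB and the enzyme that shuts it off. It had 3.58, 34.6 and 15.1 CPM in NTC, from 13, 85 and 68 counts, and 22.7 and 40.1 CPM in sgJUN#1, from 110 and 112 counts. The NTC libraries thus differed more from each other than the group means did, and NTC replicate 2 reached the sgJUN#1 range. The TNFAIP3 log2 fold change was 0.86 (SE 0.758, adjusted p = 0.809 by edgeR), and it was 0.35 without NTC replicate 1, 0.41 without sgJUN#1 replicate 2 and 1.70 without NTC replicate 2 (edgeR adjusted p = 0.363). WAKMAR2, on the opposite strand, had 13 to 24 counts per library, as many as TNFAIP3 in NTC replicate 1.

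CYLD, which trims linear and K63-linked ubiquitin chains, had 33.3, 34.6 and 44.4 CPM in NTC and 51.4 and 65.5 CPM in sgJUN#1. Its groups did not overlap, and the log2 fold change was 0.63 (SE 0.227, adjusted p = 0.474 by edgeR). TNIP1 had 51.7, 104.6 and 97.8 CPM in NTC and 92.7 and 120.2 CPM in sgJUN#1, with NTC replicate 1 again the low library (log2 fold change 0.33, SE 0.297, and 0.07 without that library). For TNIP2 the log2 fold change was 0.15 (SE 0.301).

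Of the 6 cytokines, CSF3 was the one with enough counts to be tested. CSF3 encodes G-CSF, which drives the production of neutrophils (Entrez 1440, chromosome 17, 38171614 to 38174066). It had 39.6, 126.6 and 52.1 CPM in NTC, from 144, 311 and 235 counts, and 149.2 and 245.4 CPM in sgJUN#1, from 723 and 686 counts. The groups did not overlap, but NTC replicate 2 lay nearer to sgJUN#1 replicate 1 than to the other NTC libraries. The mean level of the 3 NTC libraries was 72.8 ± 47.0 CPM (SD, n = 3), and that of the sgJUN#1 pair was 197.3 ± 68.0 CPM (SD, n = 2). The log2 fold change of 1.45 (SE 0.476, 95% interval 0.34 to 2.56) missed the threshold (adjusted p = 0.459 by edgeR and 0.0532 by DESeq2). With the replicate number as a block it passed, at 1.42 (edgeR adjusted p = 0.0396, against 0.756% of all tested genes), although the numbers were not found to pair the libraries.

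The other 5 cytokines were at or near the limit of detection in both groups. TNF, the classical trigger and product of the pathway, and CSF2, which encodes GM-CSF, each had 1 count in all 5 libraries together, in sgJUN#1 replicate 2. IL6, whose κB match is printed above, had 3, 2 and 0 counts in NTC and 0 in both sgJUN#1 libraries, with each library at or under the floor. LTB, a lymphotoxin chain that signals to the non-canonical branch, had 1, 3 and 2 counts in NTC and 6 and 1 in sgJUN#1. LIF, a cytokine of the IL6 family, had 9, 4 and 4 counts in NTC and 13 and 4 in sgJUN#1, a ratio of depth-scaled counts of 1.39 with a 95% counting interval of 0.666 to 2.89. A difference in these genes was not detectable at this depth.

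**Figure D2:**
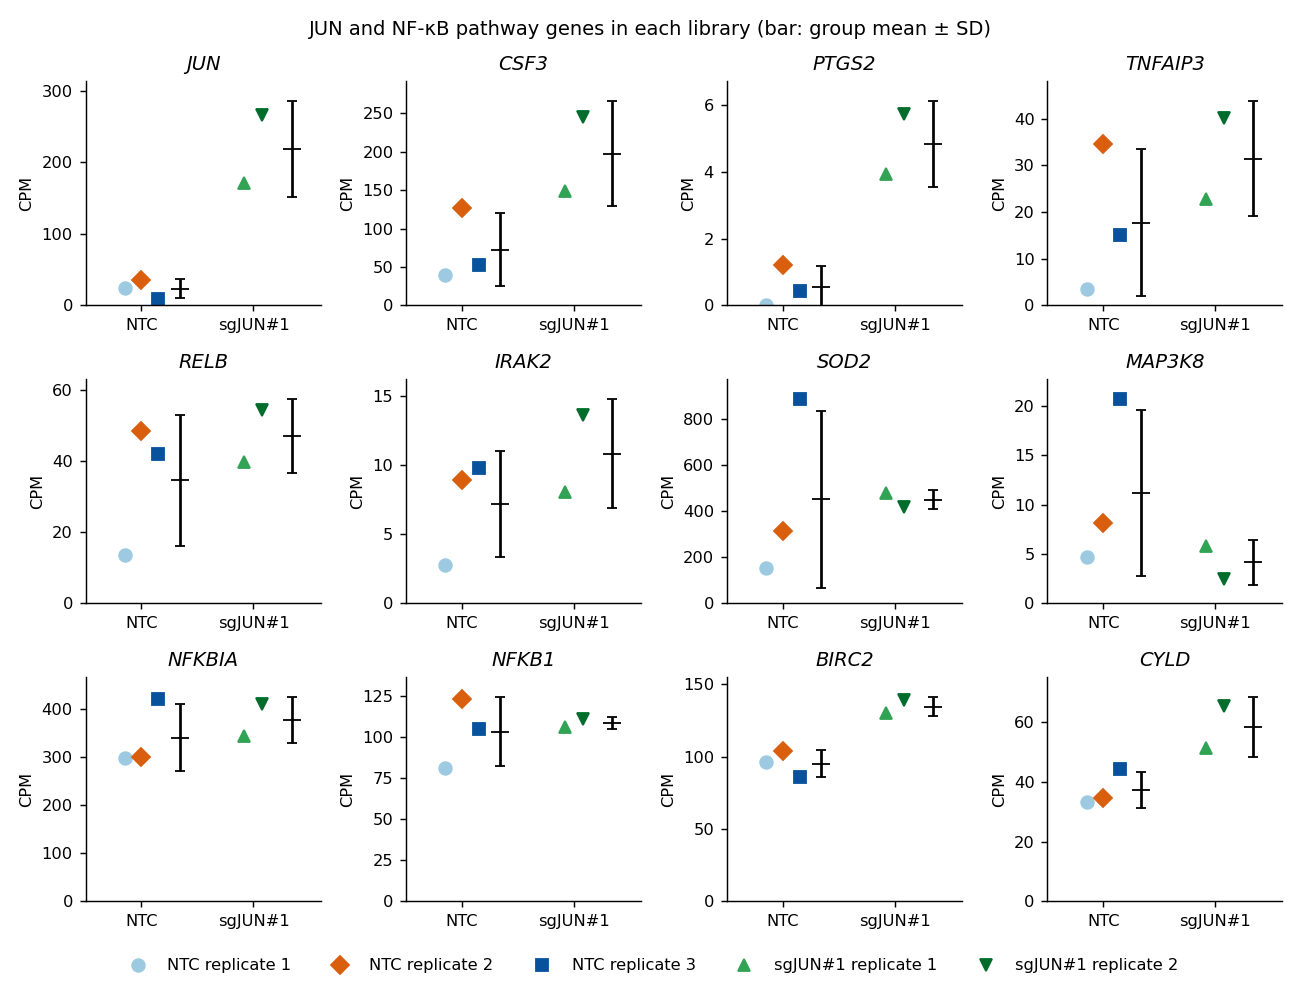
CPM (vertical axes, from 0, each panel on its own scale) of JUN and 11 NF-κB pathway genes in each library, with the mean ± SD of each group as black bars, which are clipped at 0 in PTGS2. In JUN, CSF3, PTGS2, BIRC2 and CYLD the sgJUN#1 points lie above every NTC point, while in the other panels the groups overlap, with 1 NTC library apart in RELB and IRAK2 (replicate 1, low) and in SOD2 and MAP3K8 (replicate 3, high).

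Of the 6 remaining targets 5 were tested and 0 passed the threshold. PTGS2 encodes COX-2, the inducible enzyme of prostaglandin synthesis (Entrez 5743, chromosome 1, 186640923 to 186650054), and was kept by the filter through the sgJUN#1 libraries alone. It rested on few reads, 0, 3 and 2 counts in NTC and 19 and 16 in sgJUN#1, or 0, 1.22 and 0.444 CPM against 3.92 and 5.72 CPM. The sgJUN#1 pair was above every NTC library, and all NTC values were at or under the floor of 3 counts. Pooled over libraries, the ratio of depth-scaled counts was 9.71, with a 95% counting interval of 3.79 to 31.8 that leaves out the spread between libraries. The fitted log2 fold change was 3.21 (SE 0.757, adjusted p = 0.213 by edgeR), a size that depends on how 0 counts are handled. With no expression filter PTGS2 passed the threshold (edgeR adjusted p = 0.0213), as did 0.756% of the 19587 genes then tested.

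SOD2, the mitochondrial superoxide dismutase and a sensitive NF-κB target, had 152.9, 315.4 and 885.3 CPM in NTC and 480.9 and 420.4 CPM in sgJUN#1. Both sgJUN#1 libraries lay inside the NTC range. Its log2 fold change was -0.0035 (SE 0.683) and 0.95 without NTC replicate 3. SOD2 overlaps ACAT2 and WTAP on the opposite strand. ACAT2 had 1584, 920 and 1320 counts in NTC and 1969 and 996 in sgJUN#1, WTAP had 359, 271 and 529 counts in NTC and 472 and 324 in sgJUN#1, and their part in the SOD2 values was not tested. ICAM1, the adhesion molecule that leukocytes hold on to, had 6.33, 10.6 and 9.98 CPM in NTC and 6.81 and 6.08 CPM in sgJUN#1 (log2 fold change -0.46, SE 0.358). TNFAIP2 and TNFAIP8, both named for their induction by TNF, had log2 fold changes of -0.47 (SE 0.319) and 0.43 (SE 0.266). BCL2A1, a survival gene of the BCL2 family, had 3, 4 and 10 counts in NTC and 9 and 6 in sgJUN#1 and was not tested (ratio of depth-scaled counts 1.22, 95% counting interval 0.569 to 2.61).

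The NTC libraries also differed among themselves, in inducible feedback and target genes among others. Each NTC library was set against the mean of the other NTC libraries on the log2 CPM scale. These differences are not independent, since a library that is high in a gene makes the others look low in it. NTC replicate 2, shown apart because its cytokines were known to be high, lay at least 2-fold from the others in 3 of the 35 genes (4.71% of all tested genes), TNFAIP3, CSF3 and PTGS2, each higher. In TNFAIP3 its log2 CPM was 2.13 above the others and in CSF3 1.47. PTGS2, at 1.26, rests on 3 counts. NTC replicate 1 lay at least 2-fold from the others in 8 genes (4.16% of all tested genes), each lower. These were RELB, NFKBIE, MAP3K8, IRAK2, TNFAIP3, CSF3, SOD2 and PTGS2, and the differences ran to -2.51 in TNFAIP3. NTC replicate 3 did so in 2 (7.73% of all tested genes), both higher, MAP3K8 (1.65) and SOD2 (2.01). TNFAIP3, CSF3 and PTGS2 are thus counted in replicates 1 and 2, and MAP3K8 and SOD2 in replicates 1 and 3. In replicate 1 PTGS2 rests on 0 counts.

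Over the 35 genes the median difference was -0.48 in NTC replicate 1, 0.20 in replicate 2 and 0.27 in replicate 3, beside -0.02, 0.0075 and 0.04 over all tested genes. NTC replicate 1 was the lowest of the 3 NTC libraries in 26 of the 35 (35.2% of all tested genes). The highest was replicate 2 in 16 (29.3%) and replicate 3 in 14 (39.6%). In the sgJUN#1 pair 1 of the 35 was at least 2-fold apart (5.05% of all tested genes), MAP3K8. The log2 differences of sgJUN#1 replicate 2 from replicate 1 ran from -1.05 to 0.98. A difference within a pair is another measure than a difference from a mean, so the spread of the groups was not compared. The NTC libraries are also not alike in JUN, which was highest in NTC replicate 2 (36.2 CPM) and lowest in NTC replicate 3 (9.32 CPM). The labels give no batch for these libraries, so a part of any batch in these differences was not tested. In replicates 1 and 2 the NTC and sgJUN#1 libraries of the same number have consecutive identifiers, and what this means is not stated.

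**Figure D3:**
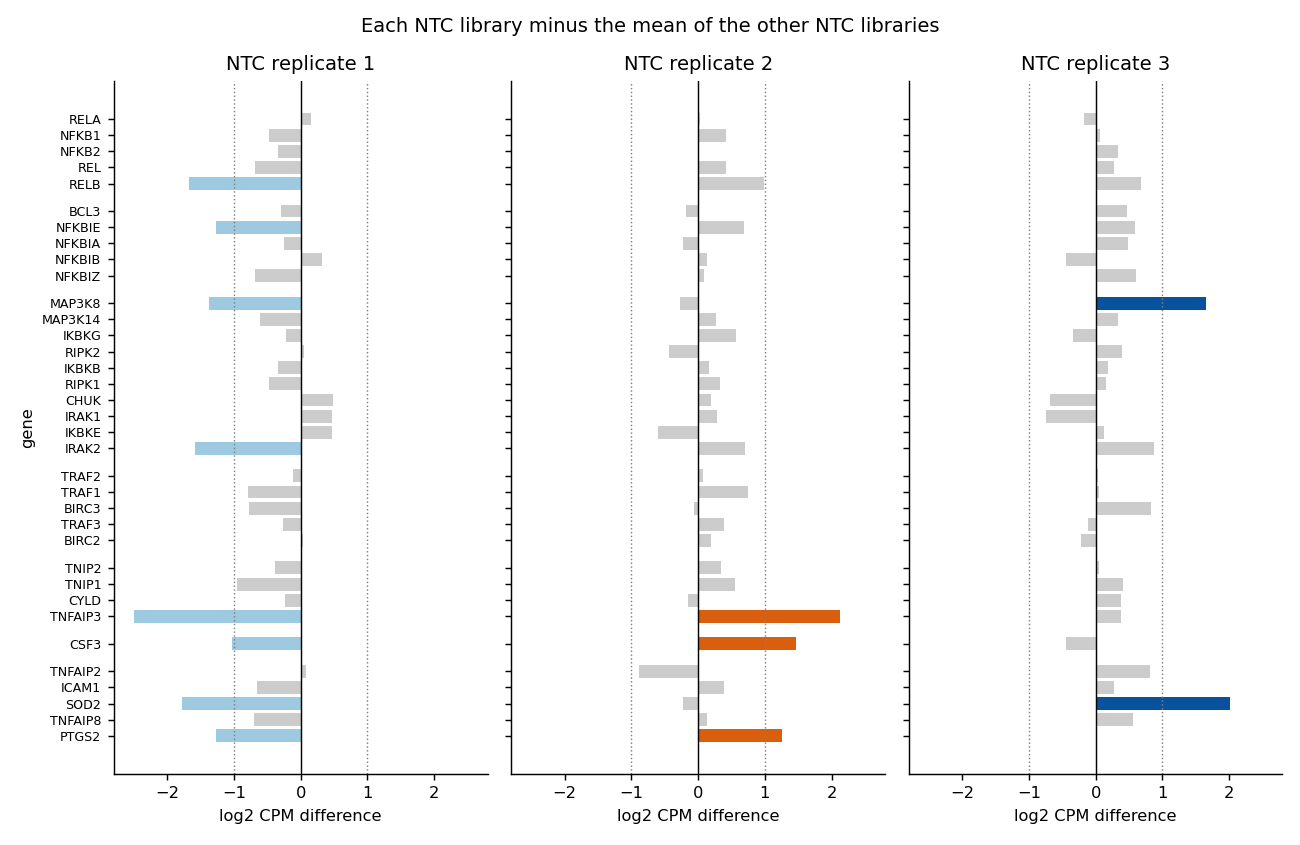
Difference in log2 CPM (horizontal axes) of each NTC library from the mean of the other NTC libraries for the 35 tested genes, grouped by role. Colored bars pass the 2-fold lines (dotted). Replicate 1 has 8 such genes, all lower, replicate 2 has TNFAIP3, CSF3 and PTGS2, all higher, and replicate 3 has MAP3K8 and SOD2, both higher.

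NTC replicate 2 was set apart for its high cytokines, CSF3 among them. Leaving it out therefore widens the differences in those genes by construction, and what follows is a description that supports no call. In the fit on the other 4 libraries 1 of the 35 genes lay past the threshold, CSF3 (log2 fold change 2.10), beside 56 of 13575 tested genes (0.413%), and it did not with limma-voom, with library size as the sole scaling or with a filter of 10 counts in every library. At an unadjusted p under 0.05 there were 7, beside 9.05% of all tested genes, and the median log2 fold change was 0.17. Log2 fold changes of other genes were 4.11 in PTGS2, 1.70 in TNFAIP3, 0.22 in NFKB1, 0.11 in BIRC3, 0.07 in NFKBIA and -0.21 in SOD2. Leaving out NTC replicate 1 in place of replicate 2 moved TNFAIP3 to 0.35, CSF3 to 1.15, PTGS2 to 2.62 and NFKB1 to -0.07, each below its value with all 5 libraries.

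**Figure D4:**
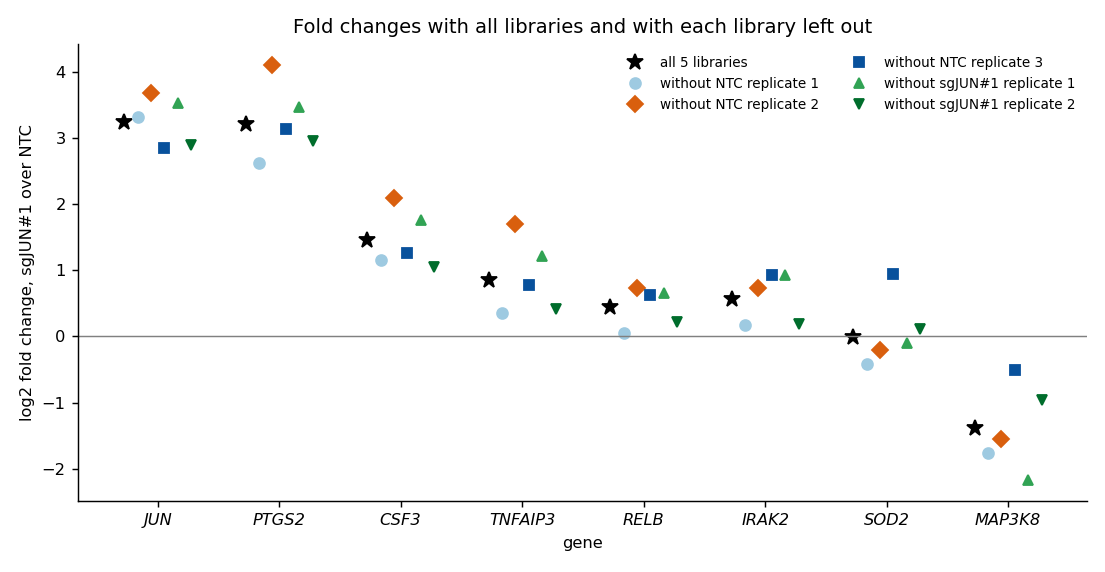
Log2 fold change, sgJUN#1 over NTC (vertical axis), of JUN and 7 pathway genes with all 5 libraries (stars) and with each library left out (other symbols). CSF3 runs from 1.05 to 2.10 and PTGS2 from 2.62 to 4.11, both above 0 in each fit. SOD2 lies at 0.95 without NTC replicate 3 and at or below 0.11 in the other fits, and MAP3K8 runs from -2.17 to -0.50.

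For the wider pathway, 93 further genes were listed by role, from receptors to targets, and 73 were tested. Of these 0 passed the edgeR threshold, 12 had an unadjusted p under 0.05 (8.38% of all tested genes), and the median log2 fold change was 0.13. DESeq2 called 2 of them, IL1R1 and S100A8 (1.06% of all tested genes), and limma-voom 0. The 8 tested receptors, 21 adaptors and ubiquitin ligases, 5 kinases and 10 brakes had medians between -0.13 and 0.18. The 29 tested targets had a median of 0.40, with 21 positive and 8 negative (49.0% of all tested genes were positive). They were listed with earlier results of these data known, the high cytokines among them. These values are therefore a description and support nothing. In the fit without NTC replicate 2, which was set apart for high cytokines, 4 of the 73 lay past the threshold (0.413% of all tested genes). These were the neutrophil-attracting chemokines CXCL8, CXCL3 and CXCL2 and the cytokine IL1B. Leaving that library out widens their differences by construction. Their log2 fold changes in that fit, given as a description, were 5.08, 4.16, 3.29 and 4.58.

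These 4 genes had the largest positive fold changes of the 73, and in each of them NTC replicate 2 stood between the other NTC libraries and sgJUN#1. CXCL8 (IL-8, Entrez 3576, chromosome 4, 74606236 to 74609433) had 9.08, 171.8 and 18.9 CPM in NTC and 480.9 and 478.7 CPM in sgJUN#1. Its log2 fold change over all 5 libraries was 2.89 (SE 1.12, edgeR adjusted p = 0.575). IL1B (Entrez 3553, chromosome 2, 113587328 to 113594393), which itself activates NF-κB through its receptor, had 14.9, 89.1 and 9.09 CPM in NTC and 192.6 and 379.6 CPM in sgJUN#1. The groups did not overlap, and the log2 fold change was 2.98 (SE 0.940, adjusted p = 0.469). CXCL3 had 1.38, 19.5 and 5.55 CPM in NTC and 52.8 and 77.3 CPM in sgJUN#1 (log2 fold change 2.99, SE 0.786, edgeR adjusted p = 0.361). CXCL2 had 7.70, 56.2 and 18.4 CPM in NTC and 94.1 and 166.4 CPM in sgJUN#1 (log2 fold change 2.29, SE 0.737, edgeR adjusted p = 0.480). CSF3 had the same order of groups, as did PTGS2, whose NTC values of 0, 3 and 2 counts were at or under the floor. NFKBIA, NFKB1 and BIRC3 overlapped between groups. These genes are examples, and others went the other way. The targets CCL20, IL1A, SAA1, SOD2 and ICAM1 overlapped, while BIRC2, CYLD, TRAF3 and NFKBIB did not. Nor did the further targets CXCL1, S100A8, S100A9, PLAU, SDC4, IER5 and IRF1, each higher in sgJUN#1, or GADD45B, which was lower. Among the 29 tested targets of the further list, 12 showed no overlap (11 higher and 1 lower), beside 25.0% of all tested genes. Since the list was chosen with earlier results of these data known, that count is a description. Whether CSF3, PTGS2 and the 4 genes above differ from NFKBIA, NFKB1 and BIRC3 in their response was not tested.

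At the other end of the list, TLR4, the receptor for bacterial lipopolysaccharide, had the lowest fitted log2 fold change (-4.69, SE 1.35, edgeR adjusted p = 0.341). The filter had kept it through NTC libraries alone, so it had to differ to be tested, and the fitted size depends on how 0 counts are handled. It had 15, 1 and 33 counts in NTC and 0 and 1 in sgJUN#1, so NTC replicate 2 was at the sgJUN#1 level. The pooled ratio of depth-scaled counts was 0.0283, with a 95% counting interval of 0.000703 to 0.165 that leaves out the spread between libraries. GADD45B, a stress-induced survival gene, had 41.5, 38.3 and 63.2 CPM in NTC and 29.1 and 27.5 CPM in sgJUN#1, lower in both sgJUN#1 libraries (log2 fold change -0.76, SE 0.268, edgeR adjusted p = 0.465). OTUD7B, a deubiquitinase that acts on TRAF3, had 42.6, 43.1 and 92.5 CPM in NTC and 38.4 and 41.1 CPM in sgJUN#1 (log2 fold change -0.59, SE 0.349), and -0.11 without NTC replicate 3.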

How the data were processed

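RNA was extracted on columns, and libraries were made with the QuantSeq 3′ mRNA-Seq kit (forward version), which reads near the 3′ end of each transcript. Per the labels and the study's methods, the authors trimmed reads with Cutadapt, aligned them to hg19 with Bowtie2 and counted them over genes in R (countOverlaps); the submitters' processing notes name cutadapt 4.2 and Bowtie2 2.3.5.1. The study's RNA-sequencing methods, written for its experiments in general, name another Bowtie2 version and another library kit than the notes and labels of this series, which were followed here. The deposited values are raw counts per Entrez gene. Gene annotation, strand, multiple alignments and molecular identifiers are not given in the sources used here, so overlapping genes and copies can share reads, and PCR copies count as reads.

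Symbols came from RefSeq gene names on GRCh38.p14 (23308 of 23459 identifiers) and positions from GENCODE on GRCh37 (22518). Counts were tested with edgeR 4.0.16 (quasi-likelihood F test, TMM, filterByExpr, robust estimation) in R 4.3.3, with group as the only term and Benjamini-Hochberg adjustment over all tested genes. The threshold was an adjusted p of 0.05. SE is the log2 fold change over the square root of F. Log2 CPM used a prior count of 2. Alternatives were DESeq2 1.42.0, limma-voom 3.58.1, other scalings and filters, a replicate block and each library left out. The code was tested on simulated counts. Groups and replicate numbers came from the sample titles. Replicate differences in the 2 groups correlated at 0.0146 over tested genes, so the numbers were not taken to pair libraries. All library pairs differed beyond counting noise (chi-square per degree of freedom at least 7.62) and were kept as separate replicates. The study gives a smaller n for its own enrichment analysis than the labels give for NTC, and all 5 libraries were used here.

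The members, the role lists and the 93 further genes were chosen with earlier results of these data known. Described in full were JUN, members past the threshold with or without NTC replicate 2, members with a log2 fold change of at least 1 in size or at least 2-fold off in NTC replicate 2 (mean of at least 3 CPM), and the subunits, NFKBIA and TNFAIP3; of the further genes, those past the threshold in either fit and the 3 highest and 3 lowest. All other genes given with values were chosen after their values were seen.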

Additional observations from a re-analysis of the deposited data

How the results depend on the processing

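Of the 35 tested genes, 0 passed the threshold, and this count held in 11 of 14 alternatives. It was 1 with no filter (PTGS2) and 1 with the replicate block (CSF3), and it ran from 0 to 1 with each library left out. For the 93 further genes the count of 0 became 2 with DESeq2, 2 with no filter and 1 with the replicate block (IL1R1), and ran from 0 to 4 with each library left out. Without NTC replicate 2 the count of 1 became 0 with limma-voom, 0 with library size as the only scaling, 0 when every library had to reach 10 counts and 4 with no filter (CSF3, MAP3K8, PTGS2 and TNFAIP3), and ran from 1 to 4 with a further library left out. Calls over all genes ranged from 10 (without NTC replicate 1) to 148 (no filter) with all 5 libraries or 1 left out. In the fits without NTC replicate 2 they ranged from 25 (at least 10 counts) to 681 (also without NTC replicate 1), with 209 by DESeq2 and 522 of 19452 with no filter. The members' median log2 fold change lay between 0.06 and 0.29, and 3 or 4 genes were at least 2-fold off in NTC replicate 2.

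JUN passed the threshold with DESeq2 (3.24, adjusted p = 3.84e-11), with limma-voom (3.47, 0.0342), with non-robust estimation (3.25, 0.0360) and with the replicate block (2.82, 1.2e-04). With each library left out its log2 fold change ran from 2.84 to 3.68, and it passed without NTC replicate 2 or 3. Of the 35 genes, 12 changed sign and 26 moved over 1.5 times with some library left out. With a change of method, signs changed for RELA (-0.022 with the replicate block), NFKBIE (0.092 with the block), CHUK (-0.17 with the block), IRAK1 (-0.10 with the block) and SOD2 (0.016 with DESeq2, 0.35 with limma-voom, 0.014 with RLE factors and 1.03 with the block). With each library left out, the log2 fold change ran from -0.072 to 0.22 in NFKB1, -0.41 to 0.44 in NFKB2, -0.090 to 0.16 in RELA, -0.68 to 0.22 in NFKBIE, -0.42 to 0.95 in SOD2, -0.71 to 0.11 in BCL3, -0.40 to 0.40 in CHUK, -0.69 to 0.02 in IKBKG, -0.23 to 0.43 in IRAK1, -0.09 to 0.19 in RIPK1, -0.49 to 0.03 in TRAF1 and -0.06 to 0.49 in BIRC3. The cause was not tested. The replicate block compares replicate 1 with 1 and 2 with 2, so NTC replicate 3 has no partner in it, and it changed no call among the named members other than CSF3 and JUN. With the block 11 of the 35 genes had an unadjusted p under 0.05 by edgeR, where the main fit had 4. The matching share of all genes is not given here. Fits that leave out an sgJUN#1 library assume that the lone library varies like NTC. Alternatives for single genes among the 93 were chosen after the data were seen. Depth limits what can be said of TNF, CSF2, IL6, LTB, LIF and BCL2A1.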
